A study of Arabidopsis thaliana with 6 samples.

Results

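The iron homeostasis genes of Arabidopsis thaliana were followed here in whole seedlings of 2 genotypes. The set holds 39 genes, listed by locus, of 33557 genes in the deposited gene table, and all 39 were found there. They were divided by known role into 9 uptake genes, 5 coumarin genes, 8 regulators, 8 transport genes and 9 storage genes. RNA depleted of ribosomal RNA came from 10-day-old seedlings of the Columbia ecotype grown on plates with sucrose, without further treatment. For the 3 wild type libraries the labels name no transgene, and the other 3 libraries carry the label CPL4 knockdown, with RNAi in their names. The CPL4 protein removes phosphate from the tail of RNA polymerase II. The labels give neither the promoter of the silencing construct nor the number of independent lines behind it, and they call the replicates biological.

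Each gene had 1 FPKM value per genotype, pooled by the authors over its replicates. FPKM counts sequenced fragments scaled by transcript length and by the number of mapped fragments. No value of an iron gene in a single library and no library total was given in the sources used here, so neither a spread between replicates nor an overlap of the libraries can be shown. The replicate error enters only through the q-value that Cuffdiff gave the authors, and a gene is called higher or lower below where that q was under 0.05. Of 18038 tested genes, 22.5% were called in the authors' deposited table, 12.7% higher and 9.78% lower in the libraries labelled knockdown. The value listed for the target went against its label, since CPL4 had 4.92 FPKM under the wild type label and 8.84 FPKM under the knockdown label (q = 6.39e-04, authors' deposited table), so "labelled knockdown" refers to the label throughout. Whether fragments from the silencing construct were counted in the CPL4 value was not tested. In whole seedlings, fewer cells of a type and less RNA per cell cannot be told apart.

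Arabidopsis takes up iron from the soil by acidifying it, reducing ferric iron at the root surface and importing the ferrous ion into the epidermis. Secreted coumarins help to mobilise ferric iron. A cascade of basic helix-loop-helix (bHLH) factors turns these steps on when iron is short, and the ubiquitin ligase BTS restrains the cascade. Inside the plant, iron travels bound to citrate or nicotianamine, and excess is kept in vacuoles or in ferritin.

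The regulators and the genes downstream of them did not move in a single direction. Of the 39 genes, 27 were tested. In the labelled knockdown 11 of them had a higher call and 3 a lower call, while the other 12 had too few fragments for a test. The called shares of the tested genes were 40.7% higher and 11.1% lower, beside 12.7% and 9.78% over all tested genes. The higher calls comprised 2 uptake genes, 2 coumarin genes, 3 transport genes and 4 storage genes, whereas the 3 lower calls were BTS, BHLH101 and FRO3. Within this set of 39, no regulator was called higher, and no coumarin, transport or storage gene lower. The further iron genes described below were not split in this way, and of 32 tested, 9.38% were called higher and 12.5% lower. Among them the bHLH gene bHLH115 was called higher, and the metal transporter genes IREG1 and NRAMP2 lower. The median log2 ratio was 0.28 over the tested iron genes, with a range from −1.02 to 1.58, beside −0.00 over all tested genes. Since genes reach a test only with enough fragments, these shares describe the tested genes and not the whole set. The 39 genes were chosen with earlier results of these data known, and the effect of that choice on the shares was not tested.

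**Figure D1:**
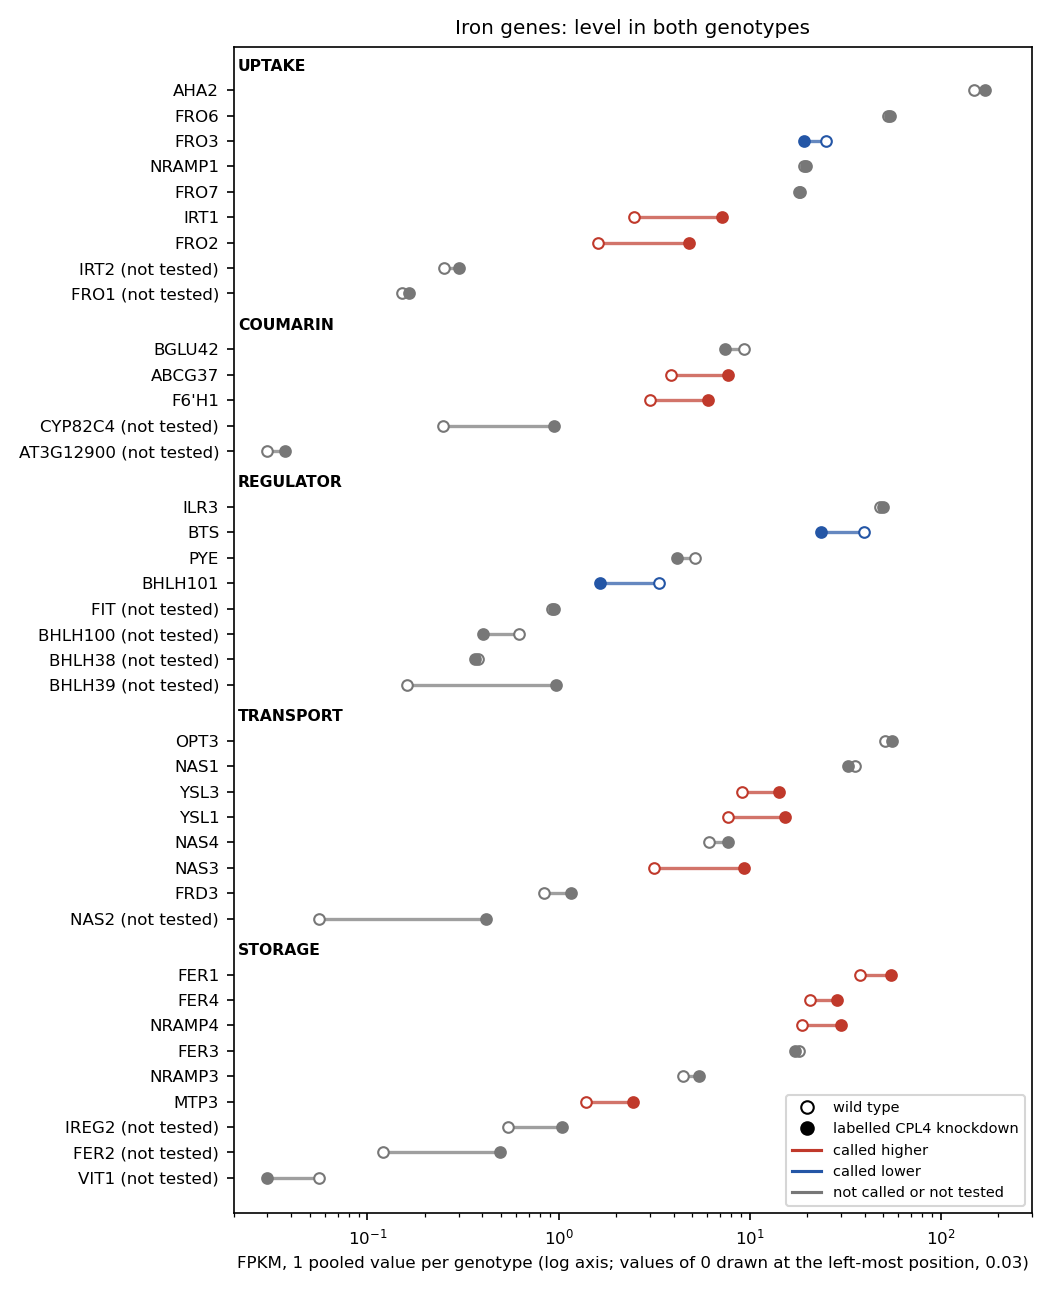
FPKM of the 39 iron genes in wild type (open circles) and in the labelled CPL4 knockdown (filled circles), by role group, on a log axis, with values of 0 drawn at 0.03. Red lines mark the 11 genes called higher, blue lines the 3 called lower, and grey lines genes not called or not tested; there is 1 pooled value per genotype and no error bar.

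Several of the results below concern genes whose upstream sequence differs in content of the G-box, the E-box form CACGTG. bHLH proteins, to which most factors of this pathway belong, bind E-boxes (CANNTG). The 250 bases before the gene start were read from the RefSeq assembly TAIR10.1 at the starts of its own annotation, and both strands were searched for both motifs; every G-box is also an E-box. A G-box was found before 7 of the 38 iron genes searched (18.4%), beside 6.48% of 27437 protein-coding genes. The 7 genes were FRO6, FRO7, BHLH38, BHLH100, BTS, OPT3 and FER3. Of these, 0 were called higher and 1, BTS, was called lower. FRO6, FRO7, OPT3 and FER3 were not called, and BHLH38 and BHLH100 were untested. A relation between G-boxes and calls was not tested. FRO6 and FRO7 are tandem neighbours with the same bases on both sides of the G-box, so these are not 2 independent matches. An E-box was found before 22 of the 38 (57.9%), beside 55.3% of all. The upstream sequences of BTS, of the ferritin genes FER3 and FER1, and of FRO2, IRT1 and BHLH101 are shown 5′ to 3′, because the calls of these genes differ; capitals mark G-boxes.
BTS, chr3:6273716-6273965, plus strand: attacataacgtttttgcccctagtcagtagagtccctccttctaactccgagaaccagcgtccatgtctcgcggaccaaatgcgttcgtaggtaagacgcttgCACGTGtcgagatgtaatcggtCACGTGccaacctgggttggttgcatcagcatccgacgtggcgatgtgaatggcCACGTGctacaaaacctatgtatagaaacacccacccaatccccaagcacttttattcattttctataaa
FER3, chr3:20816036-20816285, minus strand: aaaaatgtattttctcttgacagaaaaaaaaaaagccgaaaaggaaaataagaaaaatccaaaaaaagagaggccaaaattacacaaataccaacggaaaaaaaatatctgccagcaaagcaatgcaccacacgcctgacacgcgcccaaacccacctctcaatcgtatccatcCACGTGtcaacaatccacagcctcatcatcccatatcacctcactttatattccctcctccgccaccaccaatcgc
FER1, chr5:230052-230301, minus strand: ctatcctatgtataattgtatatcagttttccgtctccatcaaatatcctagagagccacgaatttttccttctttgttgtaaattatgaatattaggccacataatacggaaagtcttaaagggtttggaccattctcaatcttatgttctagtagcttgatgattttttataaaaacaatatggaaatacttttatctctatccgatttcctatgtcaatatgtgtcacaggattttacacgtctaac
FRO2, chr1:208745-208994, plus strand: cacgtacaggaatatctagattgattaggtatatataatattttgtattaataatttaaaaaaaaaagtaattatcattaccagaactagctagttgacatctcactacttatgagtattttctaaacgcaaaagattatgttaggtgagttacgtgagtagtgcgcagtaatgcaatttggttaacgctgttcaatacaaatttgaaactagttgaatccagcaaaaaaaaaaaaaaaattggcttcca
IRT1, chr4:10707094-10707343, plus strand: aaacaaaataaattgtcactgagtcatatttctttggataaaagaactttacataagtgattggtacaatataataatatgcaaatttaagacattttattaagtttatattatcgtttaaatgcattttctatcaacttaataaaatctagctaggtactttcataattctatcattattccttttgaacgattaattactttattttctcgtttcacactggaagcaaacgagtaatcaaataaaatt
BHLH101, chr5:1139634-1139883, minus strand: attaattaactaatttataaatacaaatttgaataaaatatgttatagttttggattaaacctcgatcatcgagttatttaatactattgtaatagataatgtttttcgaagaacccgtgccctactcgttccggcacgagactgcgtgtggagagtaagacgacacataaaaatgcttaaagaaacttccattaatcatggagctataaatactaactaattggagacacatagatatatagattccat
BTS, called lower, held 3 G-boxes, beginning 146, 124 and 70 bp before the start. FER3, not called, held a G-box 76 bp before the start. FER1, IRT1 and FRO2, all called higher, and BHLH101, called lower, held neither a G-box nor, in the same window, any E-box. FRO3, also called lower and not shown, likewise held neither. Several windows stop short of the deposited locus, among them those of FRO2, FRO3, IRT1 and BHLH101. The FRO2 window ends at 208994, and its deposited locus begins at 209395. Bases between such a window and the deposited locus were not searched. An E-box without a G-box was found before 7 other genes called higher, namely F6'H1, ABCG37, NAS3, YSL1, YSL3, NRAMP4 and MTP3. Any E-box lay before 57.9% of the iron genes searched and 55.3% of all, and the share with an E-box but no G-box over all genes was not counted. The windows of NRAMP4 and MTP3 each overlap 1 other gene. A match is only a description of the letters in this window.

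Among the uptake genes, the reductase and the transporter of the root surface rose together. FRO2 (AT1G01580, chromosome 1, 209395 to 213041, TAIR10), the ferric reductase of the root epidermis, stood at 1.61 FPKM in wild type and 4.81 FPKM in the labelled knockdown, 2.98-fold higher (log2 ratio 1.58, q = 6.39e-04, authors' deposited table). IRT1 (AT4G19690, chromosome 4, 10707426 to 10709015), the main ferrous iron importer of the root, stood at 2.47 and 7.17 FPKM, 2.90-fold higher (log2 ratio 1.54, q = 6.39e-04, authors' deposited table). Among all tested genes, the log2 ratio lay at percentile 97.4 for FRO2 and 97.3 for IRT1. Their levels were modest, since the median FPKM of tested genes was 8.29 in wild type.

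The remaining uptake genes showed no such rise. AHA2, a plasma membrane proton pump, was the most abundant iron gene of the set at 149 and 170 FPKM (log2 ratio 0.19, q = 0.342, authors' deposited table). NRAMP1, a transporter of manganese and iron, stood at 19.3 FPKM in wild type and 19.6 FPKM in the labelled knockdown (q = 0.928, authors' deposited table). FRO3, a reductase placed in mitochondria, fell from 25.2 to 19.2 FPKM, 1.31-fold (log2 ratio −0.39, q = 0.0250, authors' deposited table). The reductases of the shoot did not pass the test: FRO6 stood at 52.8 and 54.1 FPKM (q = 0.881), and the chloroplast reductase FRO7 at 18.4 and 18.1 FPKM (q = 0.947), in the authors' deposited table. FRO6 and FRO7 share exon sequence, with 16.2% of the 50-base words of FRO6 and 24.5% of those of FRO7 found in the other gene, so their separate levels are uncertain.

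FRO2 and IRT1 each have a tandem neighbour of the same family that was listed near 0. FRO1 begins 1187 bp after the FRO2 locus with no gene between, and was listed at 0.152 FPKM in wild type and 0.166 FPKM in the labelled knockdown, untested. IRT2, also expressed in root epidermis, ends 2609 bp before IRT1 and was listed at 0.251 and 0.302 FPKM, untested. FRO1, FRO2, IRT1 and IRT2 shared no 50-base exon word with any other place in the genome. The difference between neighbours was not tested.

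The coumarin genes that could be tested split between synthesis and export on the higher side and a glucosidase that was not called. F6'H1 (AT3G13610, chromosome 3, 4449374 to 4452624), the oxygenase that opens the route to scopoletin, rose from 3.00 to 6.06 FPKM, 2.02-fold (log2 ratio 1.02, q = 0.0164, authors' deposited table). ABCG37 (AT3G53480, chromosome 3, 19825307 to 19831797), an exporter of phenolic compounds from roots, rose from 3.88 to 7.75 FPKM, 2.00-fold (log2 ratio 1.00, q = 6.39e-04, authors' deposited table). The deposited locus of F6'H1 is shared with AT3G13620 on the opposite strand, which stood at 4.31 and 4.46 FPKM (q = 0.925, authors' deposited table). BGLU42, a beta-glucosidase linked to coumarin release, stood at 9.29 and 7.40 FPKM (log2 ratio −0.33, q = 0.137, authors' deposited table). CYP82C4, which hydroxylates fraxetin, was listed at 0.250 FPKM in wild type and 0.943 FPKM in the labelled knockdown, untested, and 8.98% of its exon words recur in its relatives AT4G31950 and AT4G31970. AT3G12900, annotated as an oxygenase of the same superfamily as F6'H1, was listed at 0 in wild type, beside 0.0370 FPKM in the labelled knockdown.

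The regulators were the sole role group with called genes on the lower side alone. These were 2 of 4 tested regulators, beside 9.78% called lower over all tested genes. The other 4 regulators were untested. BTS (AT3G18290, chromosome 3, 6273995 to 6280510), the ubiquitin ligase that restrains iron uptake, fell from 39.5 to 23.6 FPKM, 1.67-fold (log2 ratio −0.74, q = 6.39e-04, authors' deposited table). Its log2 ratio lay at percentile 5.51 of the tested genes. BHLH101 (AT5G04150, chromosome 5, 1138559 to 1139476), of the bHLH Ib subgroup that partners FIT, fell from 3.37 to 1.65 FPKM, 2.03-fold (log2 ratio −1.02, q = 0.0493, authors' deposited table), just inside the threshold. ILR3, a bHLH factor upstream of the Ib genes, stood at 47.8 and 49.9 FPKM (q = 0.795, authors' deposited table), in a locus shared with GAUT12 on the opposite strand. PYE, a bHLH repressor, stood at 5.16 and 4.16 FPKM (log2 ratio −0.31, q = 0.338, authors' deposited table).

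FIT, the factor required for IRT1 and FRO2 expression in roots, was listed at 0.925 FPKM in wild type and 0.944 FPKM in the labelled knockdown, too low for a test. The other 3 bHLH Ib genes were untested as well. BHLH38 stood at 0.380 and 0.364 FPKM and BHLH100 at 0.624 and 0.401 FPKM, while BHLH39 stood at 0.162 FPKM in wild type and 0.967 FPKM in the labelled knockdown. The deposited loci of BHLH38 and BHLH39, both on the minus strand, lie 1395 bp apart, and the genes shared no 50-base exon word. The 4 Ib genes summed to 4.53 FPKM in wild type and 3.39 FPKM in the labelled knockdown, to which BHLH101 added 3.37 and 1.65 FPKM.

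**Figure D2:**
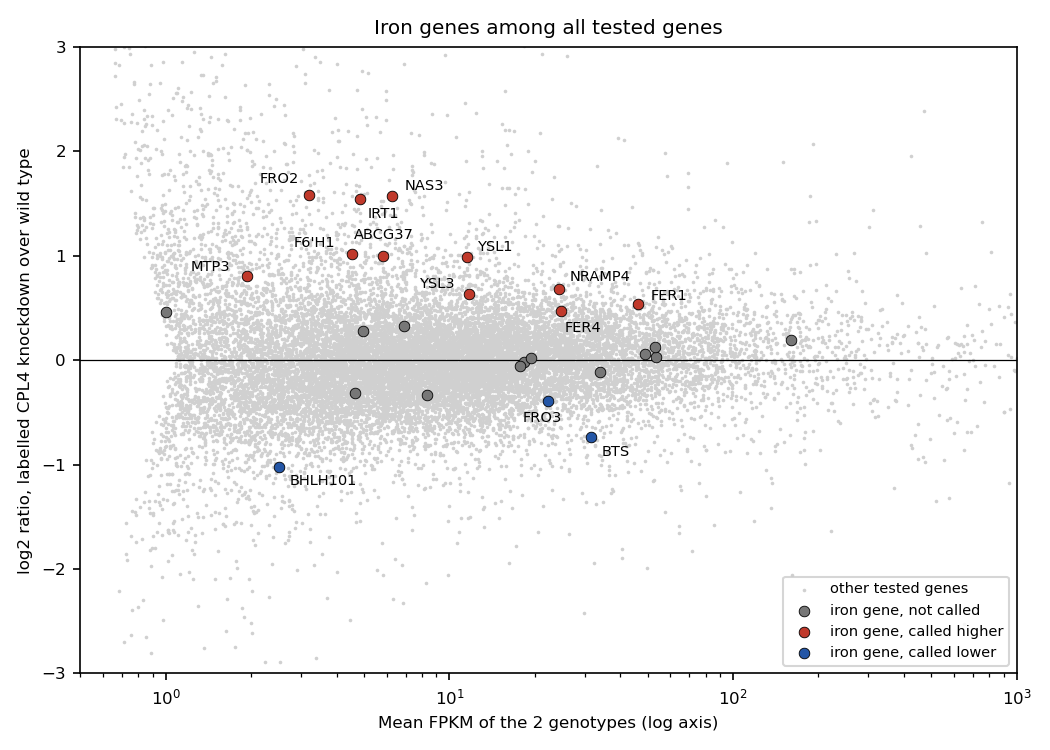
Log2 ratio of the labelled CPL4 knockdown over wild type against mean FPKM (log axis) for all tested genes (grey) and the 27 tested iron genes (grey with outline, red for called higher, blue for called lower); genes beyond the vertical axis are not drawn. FRO2, IRT1 and NAS3 have the highest log2 ratios of the tested iron genes, at 1.58, 1.54 and 1.57.

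Genes that move iron between organs rose in part. Nicotianamine synthases make the chelator of iron in phloem and between cells. NAS3 (AT1G09240, chromosome 1, 2984881 to 2986130) rose from 3.16 to 9.38 FPKM, 2.96-fold (log2 ratio 1.57, q = 6.39e-04, authors' deposited table). The most abundant synthase gene, NAS1, stood at 35.4 and 32.7 FPKM (log2 ratio −0.11, q = 0.617), and NAS4 at 6.11 and 7.67 FPKM (log2 ratio 0.33, q = 0.268), in the authors' deposited table. NAS2 was listed at 0.0560 and 0.416 FPKM, untested. Summed over the 4 synthases, the level was 44.7 FPKM in wild type and 50.2 FPKM in the labelled knockdown.

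YSL1 and YSL3, which carry metal-nicotianamine complexes in leaf veins, rose together. YSL1 (AT4G24120, chromosome 4, 12524491 to 12527341) rose from 7.71 to 15.3 FPKM, 1.99-fold (log2 ratio 0.99, q = 6.39e-04, authors' deposited table). YSL3 (AT5G53550, chromosome 5, 21755291 to 21758921) rose from 9.15 to 14.2 FPKM, 1.55-fold (log2 ratio 0.63, q = 6.39e-04, authors' deposited table). OPT3, which loads iron into the phloem, stood at 50.8 and 55.6 FPKM (log2 ratio 0.13, q = 0.514, authors' deposited table). FRD3, the citrate exporter that keeps iron soluble in xylem, stood at 0.843 and 1.16 FPKM (log2 ratio 0.46, q = 0.320, authors' deposited table), the lowest level of any tested iron gene.

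Of the storage group, 4 of 6 tested genes were called higher and 0 lower, beside 12.7% and 9.78% of all tested genes. FER1 (AT5G01600, chromosome 5, 227024 to 230051), the main leaf ferritin gene, rose from 37.7 to 54.9 FPKM, 1.46-fold (log2 ratio 0.54, q = 0.00166, authors' deposited table). FER4 (AT2G40300, chromosome 2, 16831293 to 16833280), whose protein reaches plastids and mitochondria, rose from 20.7 to 28.6 FPKM, 1.38-fold (log2 ratio 0.47, q = 0.0128, authors' deposited table). FER3 stood at 18.1 and 17.3 FPKM (log2 ratio −0.06, q = 0.817, authors' deposited table), and the seed ferritin gene FER2 was listed at 0.120 and 0.497 FPKM, untested. Ferritin genes summed to 76.6 FPKM in wild type and 101 FPKM in the labelled knockdown. The FER1 locus is shared with AT5G01595 on the opposite strand, at 2.40 and 1.84 FPKM (q = 0.879, authors' deposited table).

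Of the vacuolar transporters in the set, NRAMP4 and MTP3 were called higher, NRAMP3 was not called, and IREG2 and VIT1 were untested. Over all tested genes, 12.7% were called higher. NRAMP4 (AT5G67330, chromosome 5, 26861727 to 26863897), which releases iron from the vacuole, rose from 18.7 to 30.1 FPKM, 1.61-fold (log2 ratio 0.68, q = 6.39e-04, authors' deposited table). Its paralogue NRAMP3 stood at 4.47 and 5.42 FPKM (log2 ratio 0.28, q = 0.300, authors' deposited table). MTP3 (AT3G58810, chromosome 3, 21749966 to 21752008), a vacuolar zinc transporter expressed in roots under iron shortage, rose from 1.40 to 2.46 FPKM, 1.75-fold (log2 ratio 0.81, q = 0.0176, authors' deposited table). IREG2, which loads nickel and cobalt into vacuoles, was listed at 0.544 and 1.04 FPKM, and the iron importer VIT1 at 0.0558 FPKM in wild type and 0 in the labelled knockdown, both untested.

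What could be called depended on level. Between 2 and 5 FPKM (mean of both genotypes), 19.4% of all tested genes were called, with a median absolute log2 ratio of 0.89 among those called. From 20 FPKM, 29.0% were called, with a median of 0.53. The log2 ratio of FER4, 0.47 at more than 20 FPKM, was thus below the median size called among genes at the level of PYE and NRAMP3. The highest value of any untested iron gene was 1.04 FPKM, and 9 of the 12 untested genes were listed higher in the labelled knockdown and 3 lower; these differences carry no test.

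Transcription start groups, which pool the transcripts that begin at the same site, gave a second view of the genes with more than 1 such site. Of the 39 genes, 33 had 1 start group and 6 had 2. Over all tested start groups 17.5% were called in the authors' deposited table, 10.2% higher and 7.34% lower, and 11 start groups of iron genes were called higher and 3 lower. For IRT1, the larger group rose from 1.67 to 5.17 FPKM (log2 ratio 1.63, q = 0.00142), whereas the smaller stood at 0.802 and 2.00 FPKM (log2 ratio 1.32, q = 0.498), in the authors' deposited table. The larger group held 67.6% of IRT1 in wild type and 72.1% in the labelled knockdown. For BGLU42, the larger group fell from 9.06 to 6.33 FPKM (log2 ratio −0.52, q = 0.0376, authors' deposited table), although the gene total was not called, and the minor group stood at 0.234 and 1.08 FPKM, untested.

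PYE showed opposite values in its start groups without a call in either. The group higher in wild type stood at 2.74 and 0.780 FPKM (log2 ratio −1.82, q = 0.445), the other at 2.42 and 3.38 FPKM (log2 ratio 0.48, q = 0.618), in the authors' deposited table. The former held 53.1% of PYE in wild type and 18.7% in the labelled knockdown. For FRD3, the larger group held 65.7% in wild type and 99.8% in the labelled knockdown. That group stood at 0.554 and 1.15 FPKM (q = 0.348, authors' deposited table). The other FRD3 group was listed at 0.289 and 0.00283 FPKM, untested. No test of the shares was possible with 1 value per genotype. BHLH101, with 1 start group, had q = 0.0596 in the authors' deposited table of start groups and so was not called there.

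**Figure D3:**
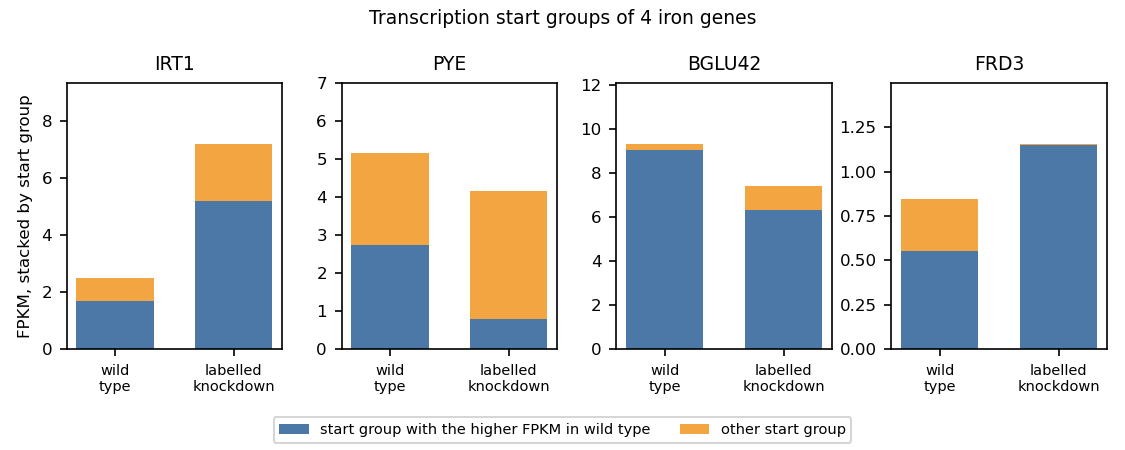
FPKM of IRT1, PYE, BGLU42 and FRD3 in wild type and the labelled CPL4 knockdown, stacked by transcription start group (blue, the group with the higher FPKM in wild type; orange, the other), each panel with its own axis from 0. The larger IRT1 group goes from 1.67 to 5.17 FPKM and the blue PYE group from 2.74 to 0.780 FPKM; there is 1 pooled value per genotype and no error bar.

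Of 42 further iron genes listed beside the 39, 32 were tested, and 21.9% of these were called, close to the 22.5% of all genes. The calls were 3 higher and 4 lower, with a median log2 ratio of −0.14. ORG1 fell from 35.7 to 17.1 FPKM, 2.09-fold (q = 6.39e-04, authors' deposited table). ZIF1, which stores nicotianamine in vacuoles, fell from 20.3 to 13.1 FPKM (q = 6.39e-04, authors' deposited table). IREG1, an exporter that loads metal into the xylem, fell from 10.1 to 6.38 FPKM (q = 0.00166, authors' deposited table). NRAMP2, a manganese transporter, fell from 5.06 to 2.83 FPKM (q = 0.0167, authors' deposited table). On the higher side, AT1G74770 (BTSL1), annotated as a zinc ion binding protein, rose from 1.24 to 2.74 FPKM (q = 6.39e-04, authors' deposited table), whereas BTS was called lower. bHLH115, a relative of ILR3, rose from 27.3 to 38.1 FPKM (q = 0.0104), and VTL5, of the vacuolar iron transporter family, from 10.5 to 15.0 FPKM (q = 0.0228), in the authors' deposited table. AT2G30766 (IMA3), annotated as an uncharacterized protein and singled out after its values were seen, stood at 10.5 and 2.15 FPKM but was not called (log2 ratio −2.29, q = 0.230, authors' deposited table).

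Among genes that build iron cofactors, 16 were tested and 43.8% were called, 6 higher and 1 lower, beside 22.5% of all tested genes. Many of the 16 had a mean of at least 20 FPKM, where 29.0% of all tested genes were called. SUFB and SUFD, scaffold subunits of plastid iron-sulfur assembly, rose from 59.7 to 93.6 FPKM and from 36.9 to 58.9 FPKM (both q = 6.39e-04, authors' deposited table). The mitochondrial scaffold ISU1 rose from 60.6 to 83.0 FPKM (q = 0.00718), and the cysteine desulfurase NFS1 from 15.2 to 19.7 FPKM (q = 0.0364), in the authors' deposited table. For tetrapyrroles, HEMA1 rose from 138 to 187 FPKM and the ferrochelatase gene FC1 from 12.1 to 17.3 FPKM (both q = 0.00927, authors' deposited table). NFU3, a plastid carrier of iron-sulfur clusters, fell from 25.5 to 17.9 FPKM (q = 0.00718, authors' deposited table).

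Zinc and copper genes were each called in 33.3% of those tested, beside 22.5% of all tested genes. Of 12 tested zinc genes, 2 had a higher and 2 a lower call. PCR2, a zinc and cadmium resistance gene, rose from 8.67 to 17.6 FPKM (q = 6.39e-04), and IRT3, a relative of IRT1 that carries zinc and iron, from 5.05 to 7.26 FPKM (q = 0.0348), in the authors' deposited table. HMA2, which loads zinc into the xylem, fell from 2.63 to 0.898 FPKM (q = 6.39e-04), and ZIP5 from 4.58 to 2.91 FPKM (q = 0.0259), in the authors' deposited table. Of 9 tested copper genes, 3 had a higher and 0 a lower call, all of the copper/zinc superoxide dismutase system. CSD1 rose from 92.6 to 129 FPKM (q = 0.00586), CSD2 from 90.3 to 128 FPKM (q = 0.00117) and their chaperone CCS from 26.5 to 35.2 FPKM (q = 0.0225), in the authors' deposited table. These 3 copper genes lie above 20 FPKM, where 29.0% of all tested genes were called.

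**Figure D4:**
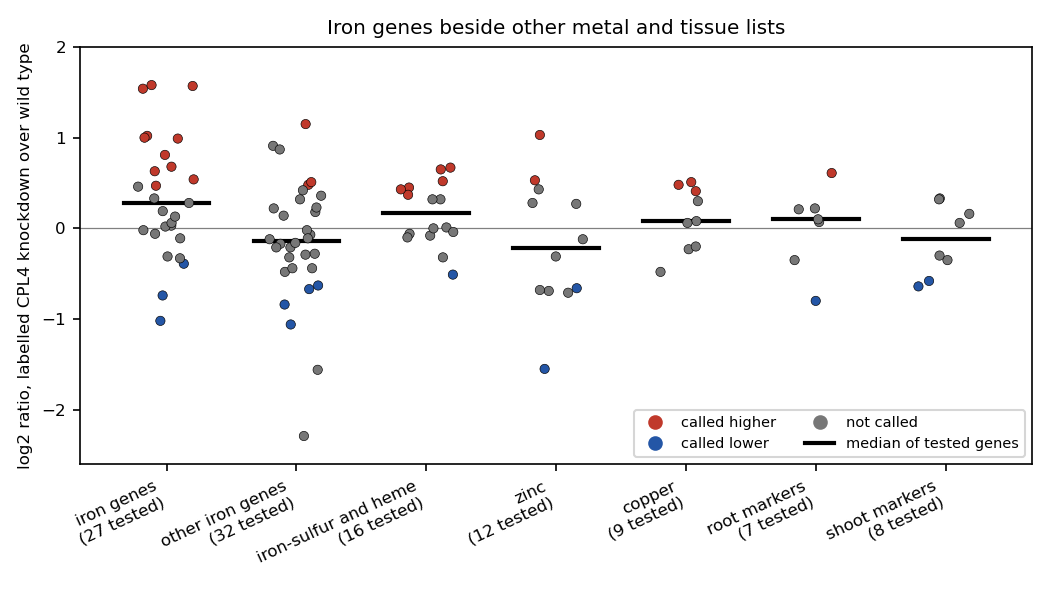
Log2 ratio of the labelled CPL4 knockdown over wild type for the tested genes of each list (points; red called higher, blue called lower, grey not called), with the median of each list as a bar. The median is 0.28 for the 27 tested iron genes and −0.14 for the 32 other iron genes.

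IRT1 and FRO2 are root genes, so markers of root and shoot were read beside them. Of 7 tested root markers, PHO1, which loads phosphate into the xylem, was called higher, from 12.4 to 19.0 FPKM (q = 6.39e-04), and the Casparian strip gene CASP1 lower, from 8.51 to 4.89 FPKM (q = 0.0120), in the authors' deposited table. The root hair genes EXP7, at 1.10 and 1.16 FPKM (q = 0.918), and EXP18, at 1.07 and 1.25 FPKM (q = 0.733), were not called in the authors' deposited table. All 10 root markers summed to 39.5 FPKM in wild type and 43.0 FPKM in the labelled knockdown, with none at 0. Without PHO1 the other 9 summed to 27.1 and 24.0 FPKM, of which CASP1 by itself made up 8.51 and 4.89 FPKM. Of the 6 tested among these 9, 4 had a log2 ratio above 0 and 2 below. The root hair gene COBL9 stood at 0.688 and 0.387 FPKM, untested. The endodermal gene ESB1 stood at 3.48 and 2.73 FPKM (q = 0.533, authors' deposited table). Listed higher in the labelled knockdown were RHD2 (0.655 and 1.05 FPKM) and WER (0.304 and 0.346 FPKM), both untested. MYB36 (1.00 and 1.17 FPKM) and SCR (10.3 and 11.0 FPKM) were also listed higher there, and neither was called. Of 8 shoot markers, CAB1 and LHCB3 had a lower call and 0 a higher call, and the list summed to 30555 and 24872 FPKM, with none at 0. CAB1, a light-harvesting gene, alone went from 15003 to 9631 FPKM (q = 0.00211, authors' deposited table), and the other 7 summed to 15551 and 15241 FPKM. The log2 ratio was above 0 for 4 of the 8, among them the Rubisco small subunit gene RBCS1A at 4637 and 5823 FPKM (q = 0.122, authors' deposited table). The part of root and shoot share in the iron values was not tested.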

How the data were processed

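Per the labels, RNA came from 3 wild type and 3 labelled CPL4 knockdown libraries. Per the submitters' processing notes, the tools were TopHat2 2.0.14 and Cuffdiff 2.2.1.3, besides Trim Galore 0.4.0, SAMtools and CASAVA 1.8.2, on the build TAIR10. Not given in the sources used here are options, strand use and how reads with several origins were placed. The authors deposited FPKM per gene and per start group, 1 value per genotype, in Cuffdiff's layout per the file headers. They also deposited p-values and q-values, used as they stand because pooled values allow no test of their own. Some cells of the deposited log2 column are spreadsheet errors; log2 ratios were therefore taken from FPKM without a pseudocount. The lowest deposited p-value, 5.00e-05, is shared by 1411 genes, 8 of them iron genes. Benjamini-Hochberg adjustment, tested on simulated data, gave the deposited q over 18038 tested genes to within 5.25e-07. The depth per library is unknown. A table of read depth over small nuclear RNAs was not used here.

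All 39 iron genes are named, and of the other lists the called genes with at least 1 FPKM in either genotype, up to 6 a direction; the start groups described, the uncalled marker genes, the marker sums without 1 gene and the sequences shown were chosen after their values were seen. The members and lists were chosen with earlier results of these data known. Deposited loci are given in TAIR10, counted from 1. Upstream sequences and their coordinates are those of RefSeq TAIR10.1, whose gene starts can differ from the deposited loci; that of 1 gene is not reported here. The coding span of 37 of 39 genes lay inside the deposited locus. Words of 50 bases from the exons were searched in the whole genome, and 34 of 39 genes had none elsewhere. Alternatives were stricter and looser thresholds, pseudocounts of 0.1 and 1, a minimum of 1 FPKM, start groups, a minimum of 1.5-fold and centring. The work used matplotlib 3.10.9, scipy 1.17.1, pandas 2.3.3 and numpy 2.4.6 under Python 3.11.15.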

Additional observations from a re-analysis of the deposited data

How the results depend on the processing

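The number of iron genes called higher, 11, ran from 8 at q under 0.01 to 11 over 7 alternatives, and was 9 with at least 1.5-fold. It was also 9 without F6'H1, ILR3 and FER1, whose deposited loci are shared with another gene, an alternative chosen after seeing the data. The number called lower, 3, dropped to 1 at q under 0.01, where BTS was left, and was 2 with at least 1.5-fold. The median log2 ratio, 0.28, was 0.27 with a pseudocount of 0.1, 0.23 with a pseudocount of 1, 0.33 over the start groups of highest mean FPKM and 0.23 without the genes in shared loci. For single genes, q recomputed over genes with at least 1 FPKM kept the call of all 27 tested iron genes; pseudocounts and centring leave q as deposited and so test no call. With the start group of highest mean FPKM over both genotypes in place of the gene, 24 of 27 kept direction and call. A gene with 1 start group keeps its ratio there by construction, so only its q could differ. Of the tested iron genes, AHA2, BGLU42, FRD3, IRT1 and PYE had 2 start groups, so the ratio could change in these alone. BGLU42 (log2 ratio −0.52) gained a call, and PYE turned from −0.31 to 0.48, uncalled. The other PYE start group, the larger in wild type, stood at −1.82. BHLH101, with 1 start group, lost its call. Of the other lists, at least 1.5-fold left 1 of the 3 other iron genes called higher, 2 of the 6 cofactor genes, 1 of 2 zinc genes and 0 of 3 copper genes. The 1 cofactor gene called lower dropped out there too. At q under 0.01, 1 other iron gene and 1 zinc gene were higher and 1 zinc gene lower. At an unadjusted p under 0.05, 6 other iron genes were higher, and 2 cofactor, 5 zinc and 1 copper gene lower; among start groups, 1 zinc gene was lower. CPL4 kept its direction and call under every alternative run. No paired analysis was possible because the deposited tables hold 1 value per genotype, and for the same reason no library could be left out. Unknown library depth limits what can be said of the 12 untested genes.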
